A study of Mus musculus with 88 samples.

Results

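Chemokine transcripts were followed through 6 tissues of mice that had been irradiated over different parts of the body. The set was 10 genes chosen by name: Ccl2, Ccl5, Ccl7, Ccl8, Ccl24, Cxcl1, Cxcl9, Cxcl10, Cxcl12 and Cxcl13. On the array these genes had 14 probes of 25697. A probe was used in a tissue when its detection p was under 0.01 on at least 3 arrays of that tissue, and 11 probes of 9 genes passed in at least 1 tissue. Female BALB/c nude mice received a single dose of 2 Gy of photons, and tissues were taken after 24 h. Group A was irradiated over the collum region only, which holds the thyroid, group B over thorax and abdomen only, and group C over all of these, with 3 mice in each group. The 5 controls were anesthetized and sham-irradiated. All mice carried the nude (Foxn1) background, which lacks a thymus and is short of mature T cells. RNA of each mouse and tissue was hybridized to its own Illumina MouseRef-8 array, and n counts mice throughout. The in-field groups of a tissue are those whose field held it: B and C, or A and C for the thyroid.

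Chemokines are small secreted proteins that attract leukocytes through G protein-coupled receptors. Some are inducible and rise with cytokines, interferon or tissue damage, and others are homeostatic and place lymphocytes and stem cells in resting tissue. In this set, Ccl2, Ccl7 and Ccl8 are monocyte chemoattractants, Ccl5 attracts T cells and monocytes, and Ccl24 (eotaxin-2) is a ligand of Ccr3 on eosinophils. Cxcl1 draws neutrophils through Cxcr2, and Cxcl9 and Cxcl10 are interferon-induced ligands of Cxcr3. Cxcl12 is the stromal ligand of Cxcr4, and Cxcl13 guides B cells to follicles through Cxcr5.

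A probe was called changed at an adjusted p under 0.01 (limma, Benjamini-Hochberg over all probes of the comparison) and a log2 difference of at least 0.58. One chemokine was called in these data, Ccl24 in the spleen. Against controls 1 of 153 tests of chemokine probes was called, where 0.194% of the tests of all probes were. For the in-field groups together it was 1 of 51 tests, against 0.533% of all, and between irradiated groups 1 of 153, against 0.0101% of all. At an unadjusted p under 0.05 the chemokines passed in 19 of 153, 6 of 51 and 23 of 153 tests. That is 12.4%, 11.8% and 15% of their tests, beside 10.3%, 10.8% and 8.52% of the tests of all probes. A difference in a bulk sample can come from fewer or more cells of a type or from less or more RNA per cell, and these cannot be told apart. The plot of in-field differences by tissue shows the 51 tests.

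**Figure D1:**
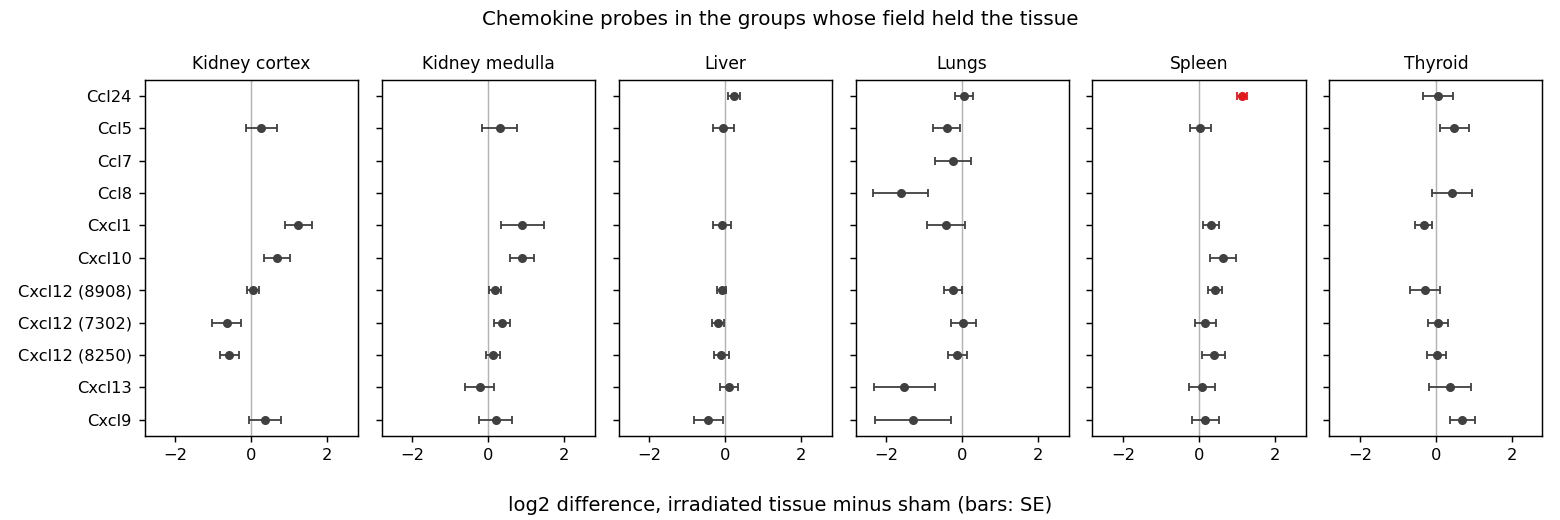
Log2 difference of each chemokine probe between the in-field groups and the sham controls (horizontal axis, bars: SE) in 6 tissues. Numbers in brackets are the last digits of the Cxcl12 probe names. Ccl24 in the spleen, in red, is the 1 called test of 51.

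Ccl24 rose in the spleen when the spleen lay in the field. Its log2 intensities in the 5 sham spleens were 7.86, 7.60, 7.60, 8.07 and 7.74. Group A, whose field left out the spleen, had 8.06, 7.81 and 7.89. Group B had 8.56, 8.36 and 8.93, and group C had 9.25, 9.21 and 9.14. The lowest mouse of group B lay above the highest control, and group C lay above group B without overlap, while group A lay inside the range of the controls. Such separation upward from the controls was seen for 4.13% of all spleen probes in group B and for 2.3% in group C.

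Group C exceeded controls by 1.42 ± 0.16 on the log2 scale (SE), a 2.68-fold level (limma, adjusted p = 0.000516), one of 8 calls in that comparison (0.0658% of probes). Group B exceeded controls by 0.85 ± 0.16, 1.80-fold, with an adjusted p of 0.0591 that missed the threshold. Group A differed from controls by 0.15 ± 0.16 (adjusted p = 0.781). Groups B and C together were 1.14 ± 0.13 above controls, 2.20-fold (adjusted p = 0.000604), one of 12 calls (0.0986%), and 0.608% of all probes were separated upward in the same way. Group A minus group C was -1.28 ± 0.18 (adjusted p = 0.00551), one of 9 calls (0.074%), with 6.53% of all probes separated in that direction. Groups A and B differed by -0.70 ± 0.18 (adjusted p = 0.0523) and groups B and C by -0.58 ± 0.18 (adjusted p = 0.249), with 8.26% of all probes separated in the latter direction. All these comparisons share mice, so they are not independent of each other. The call of group A against group C was lost in 8 of 14 fits that left out 1 spleen, among them each spleen of groups A and C and the sham spleens 1 and 3. Its adjusted p was also 0.15 in the fit with those groups alone.

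Marker genes of other cell types were measured in the same spleens, and their part in the Ccl24 result was not tested. The summed level of 8 macrophage markers was 12.57 to 13.73 on the log2 scale in controls, 12.62 to 12.94 in group A, 13.65 to 13.87 in group B and 13.38 to 13.40 in group C. For 7 B cell markers it was 13.40 to 14.42 in controls and 13.69 to 14.31 in group A. Group B had 13.64 to 13.85 and group C 11.61, 13.28 and 13.63. All 7 were lower in group C than in controls at an unadjusted p under 0.05 (limma), with a median of -1.22, beside 5.97% of all probes. In group B 0 of 7 were, with a median of -0.16. For 3 eosinophil and mast cell markers the sum was 8.63 to 11.18 in controls and 8.32 to 10.40 in group A. Group B had 8.86 to 9.70 and group C 10.36, 12.19 and 9.02. Acinar genes of the pancreas, an organ that lies against the spleen, summed to 13.10 in 1 spleen of group B and to 9.87 and 11.51 in 2 spleens of group C, where controls had 6.78 to 8.59. The remaining spleen of group C had 6.79 and a Ccl24 level of 9.25. With any 1 spleen left out the difference of group C from controls was at least 1.38. Ccr3, the receptor of Ccl24, differed by 0.04 between the in-field groups and controls in the spleen (adjusted p = 0.988).

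In other tissues Ccl24 was not called. In the liver group C had 7.40, 7.34 and 7.04 and controls 6.26 to 7.20, a difference of 0.54 ± 0.19 (limma, adjusted p = 0.225). Groups A and B stayed between 6.30 and 6.76 there, and group A minus group C was -0.72 ± 0.21 (adjusted p = 0.19), without overlap, as did 8.26% of all liver probes. In the lungs the in-field difference was 0.05 ± 0.24 and in the thyroid samples 0.05 ± 0.39, neither beyond its error. In the kidney Ccl24 was detected on no array. In a joint fit of all tissues the in-field difference of the liver minus that of the spleen was -0.92 (limma, adjusted p = 0.424), and it was -1.11 for the lungs (adjusted p = 0.532). None of 110 such tests between tissues was called for a chemokine, beside 0.442% for all probes. At an unadjusted p under 0.05 there were 19 (17.3%), beside 7.91% for all probes, and the tests include tissues where a probe did not pass detection. That fit took the tissues of 1 mouse as independent samples.

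**Figure D2:**
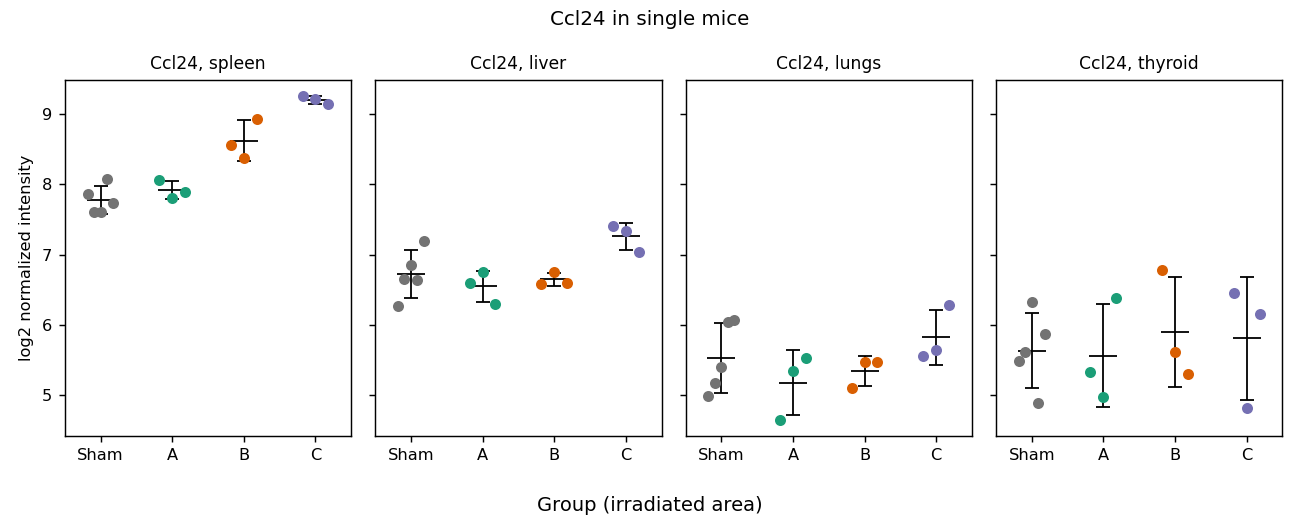
Ccl24 in single mice: log2 normalized intensity (vertical axis) by group in the 4 tissues where the probe passed. Points are mice, the long tick is the mean and bars are SD. In the spleen the 3 mice of group C lie between 9.14 and 9.25, above every other mouse.

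The other chemokines of the spleen were less clearly ordered by field. Counting Ccl24, all 9 chemokine probes of 7 genes were higher in the mean of the in-field groups than in controls, where 48.6% of all spleen probes were, but 1 passed the call. Taken alone, group B had 9 of 9 probes above controls, and group C had 5 above and 4 below. Group A was lower than group B for 9 of 9 probes, against 48% of all probes. For 8 of them the mice of group A lay below those of group B without overlap (14.6% of all probes), and 6 had an unadjusted p under 0.05 (9.57% of all). None of the 9 was called in that comparison, and 3 of the 9 probes belong to Cxcl12. Macrophage markers moved with it, with 5 of 8 lower in group A at an unadjusted p under 0.05 and a median of -0.87, and so did 7 of 15 interferon response genes, with a median of -0.50, and 5 of 6 p53 targets. The median over all genes was 0.02. The part of these cells in the chemokine levels was not tested.

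**Figure D3:**
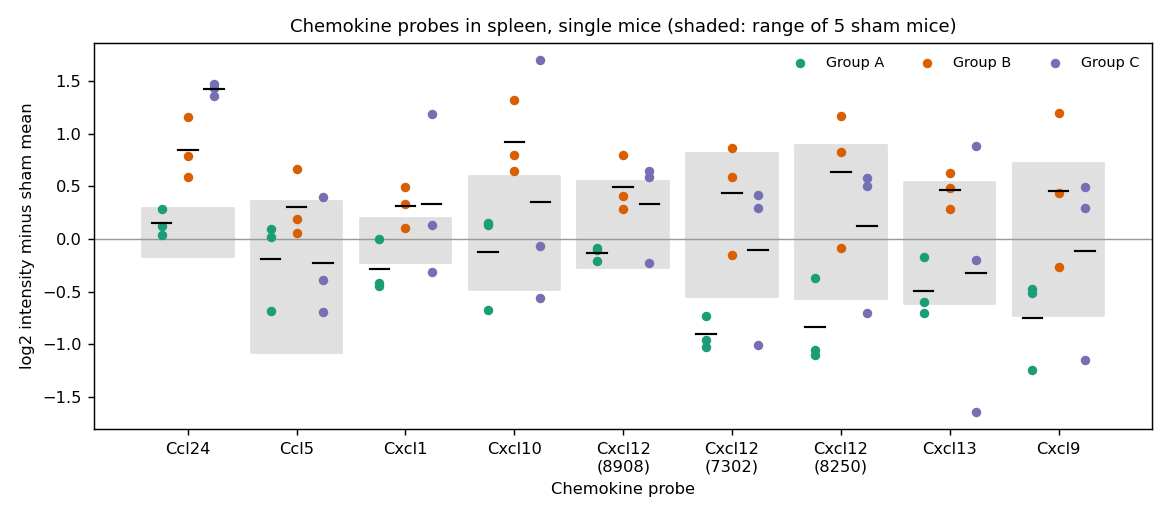
Chemokine probes in the spleen: log2 intensity of single mice minus the mean of the sham mice (vertical axis) for groups A, B and C. Black lines are group means and shading is the range of the 5 sham mice. Each mean of group A lies below that of group B, and Ccl24 has its 3 mice of group C highest.

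Cxcl12, the homeostatic ligand of Cxcr4, was measured by 3 probes in the spleen. On probe ILMN_2737302 group A had 9.12, 8.90 and 8.83, and controls had 9.67, 9.85, 9.76, 10.67 and 9.30. All of group A lay below all controls, as 3.2% of all probes did, with a difference of -0.90 ± 0.34 (limma, adjusted p = 0.4). Group B had 9.70, 10.44 and 10.72 on that probe and group C 8.85, 10.14 and 10.27, so group C spanned nearly the whole range. On the other probes group A overlapped with the controls. Its mean was 12.53 beside 12.66 in controls on ILMN_2658908, and 8.14 beside 8.98 on ILMN_3158250. Between groups A and B the 3 probes differed by -1.48, -1.34 and -0.63, with adjusted p from 0.0659 to 0.166.

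Cxcl10, a ligand of Cxcr3, was 7.38, 7.22 and 7.90 in the spleens of group B and 7.18, 6.09, 6.72, 6.66 and 6.24 in controls. The groups did not overlap, and the difference was 0.92 ± 0.41 (limma, adjusted p = 0.488). Group C had 6.02, 8.28 and 6.51, so that 1 mouse lay above all others and another below all controls. Cxcl9, a second ligand of Cxcr3, reached 9.88, 9.17 and 10.64 in the spleens of group B. Group A had 8.96, 8.19 and 8.92, and the 5 controls ran from 8.70 to 10.16. Cxcl13, which places B cells in follicles, ran from 11.70 to 12.86 in controls and from 10.68 to 13.21 in group C, whose lowest mouse also had the lowest sum of B cell markers. Ccl5 ran from 10.72 to 12.16 in controls and from 11.10 to 12.46 in groups A to C together. Cxcl1 was detected in 6 of the 14 spleens and ran from 4.89 to 6.52.

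The promoters of Cxcl1, Cxcl9 and Cxcl10 are shown, inducible members whose window held a motif named below. RefSeq entries (build GRCm38.p6) were found for 6 of the 10 members, and the letters of these motifs were not in the windows of the other 3, Ccl8, Cxcl12 and Cxcl13. The 250 bases before the annotated start are printed 5′ to 3′ on the strand of the gene, with matches to 3 motifs in capitals. Both strands were searched for a 10-base kB motif (GGGA and TTCC with 2 bases of any kind between them), for the 9-base kB motif GGGANTTCC and for the interferon-stimulated response element (GAAA and GAAA with 2 bases between them). NF-kB binds the kB motifs and interferon regulatory factors the third. Of the same window in 32851 promoters of the table, 1.21%, 1.43% and 2.98% held them.
Cxcl1, chr5:90890995-90891244, plus strand: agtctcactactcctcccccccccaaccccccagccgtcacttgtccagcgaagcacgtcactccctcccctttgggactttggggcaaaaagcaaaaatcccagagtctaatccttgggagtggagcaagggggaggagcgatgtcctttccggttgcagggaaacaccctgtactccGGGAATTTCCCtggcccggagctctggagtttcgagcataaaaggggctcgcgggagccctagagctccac
Cxcl9, chr5:92328080-92328329, minus strand: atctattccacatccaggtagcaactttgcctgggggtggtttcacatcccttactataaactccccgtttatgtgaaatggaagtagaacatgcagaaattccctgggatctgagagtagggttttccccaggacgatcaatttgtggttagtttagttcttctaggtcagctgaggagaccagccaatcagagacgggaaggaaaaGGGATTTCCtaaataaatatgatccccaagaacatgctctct
Cxcl10, chr5:92348890-92349139, minus strand: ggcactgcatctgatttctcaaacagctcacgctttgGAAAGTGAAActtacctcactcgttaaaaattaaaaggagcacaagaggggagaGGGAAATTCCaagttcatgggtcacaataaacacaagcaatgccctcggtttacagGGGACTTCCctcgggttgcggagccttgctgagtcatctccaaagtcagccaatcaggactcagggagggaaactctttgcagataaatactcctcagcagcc

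In Cxcl1 the 10-base kB motif matched on both strands at 1 place, where the overlapping matches span -71 to -61 from the start. Cxcl9 held the 9-base form at -42 to -34. Cxcl10 held the interferon element at -213 to -204, the 10-base kB form at -159 to -150 and the 9-base form at -103 to -95. These are matches of letters, and binding was not measured.

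In the kidney, Cxcl1 and Cxcl10 had the highest in-field differences of the chemokines, and none was called. These values were singled out after they were seen. In the kidney cortex Cxcl1, the neutrophil chemoattractant, was 5.87, 5.02, 4.62, 5.00 and 4.91 in controls. The probe was detected in only 1 of the 5 control cortices and in 2 of the 5 control medullae, so most control values were at background. Groups A and B had 5.38 to 6.33 and group C had 6.19, 5.83 and 8.22. Group C exceeded controls by 1.66 ± 0.43 (limma, adjusted p = 0.4). Without the mouse at 8.22 the difference was 0.92. That cortex also had the highest summed level of 2 acute phase genes, 11.47, where the other 13 had 6.06 to 8.68.

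In the kidney medulla the pattern was again 1 mouse of group C. Cxcl1 was 10.14 in that medulla and 5.65 to 6.79 in the other 13 mice, so that the difference of 1.55 ± 0.67 between group C and controls (limma, adjusted p = 0.162) became 0.21 without it. Ccl2, a monocyte chemoattractant, was detected on that 1 array of 88, at 5.98, and the median of all medullae was 4.68. The same medulla had an acute phase sum of 13.01, against 8.45 to 9.33 in the others, and the lowest sum of proximal tubule markers, 14.63 against 15.21 to 15.64. The high cortex and the high medulla carry different replicate numbers.

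Cxcl10 in the medulla was 7.42, 8.30 and 6.45 in group C. Group B had 6.91, 6.22 and 6.92, and group A had 5.85, 6.06 and 5.54. The 5 controls had 6.23, 5.84, 7.04, 5.49 and 6.20, overlapping with each group. Group C exceeded controls by 1.23 ± 0.38 (limma, adjusted p = 0.0732), and groups B and C together by 0.88 ± 0.31 (adjusted p = 0.0816). Leaving out the medulla at 6.45 raised the difference of group C to 1.70 with an adjusted p of 0.0069, which passes the threshold, and leaving out the medulla at 8.30 lowered it to 0.78 with an adjusted p of 0.321. The medulla at 8.30 is the one with Cxcl1 at 10.14, the acute phase sum of 13.01 and the lowest proximal tubule sum, and the part of these in the Cxcl10 level was not tested. In the same comparison of groups B and C with controls the interferon response gene Oasl2 was called, 1.05 higher (limma, adjusted p = 0.00431). It was the 1 called of 14 interferon response genes tested and one of 371 calls among all medulla probes (3.02%). Of the 14, 7 were higher at an unadjusted p under 0.05, beside 14.1% of all medulla probes. Cxcl9, induced by interferon too, differed by 0.20 in the medulla and by 0.36 in the cortex, both within their errors. Cell markers were also called in the medulla between groups B and C and controls. Adgre1, 1 of 5 macrophage markers tested, was 0.89 higher (limma, adjusted p = 0.00798). Prf1, the 1 T and NK cell marker tested, was 0.92 higher (adjusted p = 0.00465). The part of these cells in the Cxcl10 level was not tested.

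Among kidneys, those labelled group B replicate 3 stood out for Cxcl9 and Ccl5. Cxcl9 was 8.49 in that cortex and 8.16 in that medulla, and the other 13 mice had at most 7.27 and 7.09. Ccl5 was 8.67 and 8.12 there, and the others had at most 7.71 and 7.57. The labels do not say whether equal numbers in different tissues mark 1 mouse.

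In group A, whose field left out the kidneys, the cortex values of Cxcl1 were 5.96, 6.04 and 6.03, all above the controls, as for 5.72% of all cortex probes. Cxcl1 was detected in only 1 of those 5 controls. In the medulla Cxcl13 in group A, at 7.43, 7.48 and 7.60, lay above the controls at 6.46 to 7.40 and differed by 0.59 (limma, adjusted p = 0.462), where 11.4% of all medulla probes were separated in that way. The 3 probes of Cxcl12 gave different pictures in the kidney. In the medulla, on probe ILMN_2737302 group A had 9.89, 10.46 and 9.88, group B had 9.90, 10.10 and 10.37 and controls had 9.66, 9.78, 8.98, 9.52 and 9.62. Group B differed from controls by 0.61 ± 0.25 (limma, adjusted p = 0.159), and 11.5% of all medulla probes were separated upward in group B. On ILMN_3158250 the means of groups A and B were 9.21 and 9.37 beside 9.06 in controls, and on ILMN_2658908 they were 12.62 and 12.57 beside 12.34, and on both probes the mice overlapped with the controls. In the cortex probe ILMN_3158250 of the same gene differed by -0.83 ± 0.30 in group B (limma, adjusted p = 0.286), where 1 mouse had 6.81 and the others 8.09 and 8.35. On ILMN_2737302 the mean of group B was 8.38 beside 9.33 in controls, with 1 mouse at 6.73 and the others at 9.06 and 9.34. Probe ILMN_2658908 differed by -0.07 ± 0.20 in group B.

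**Figure D4:**
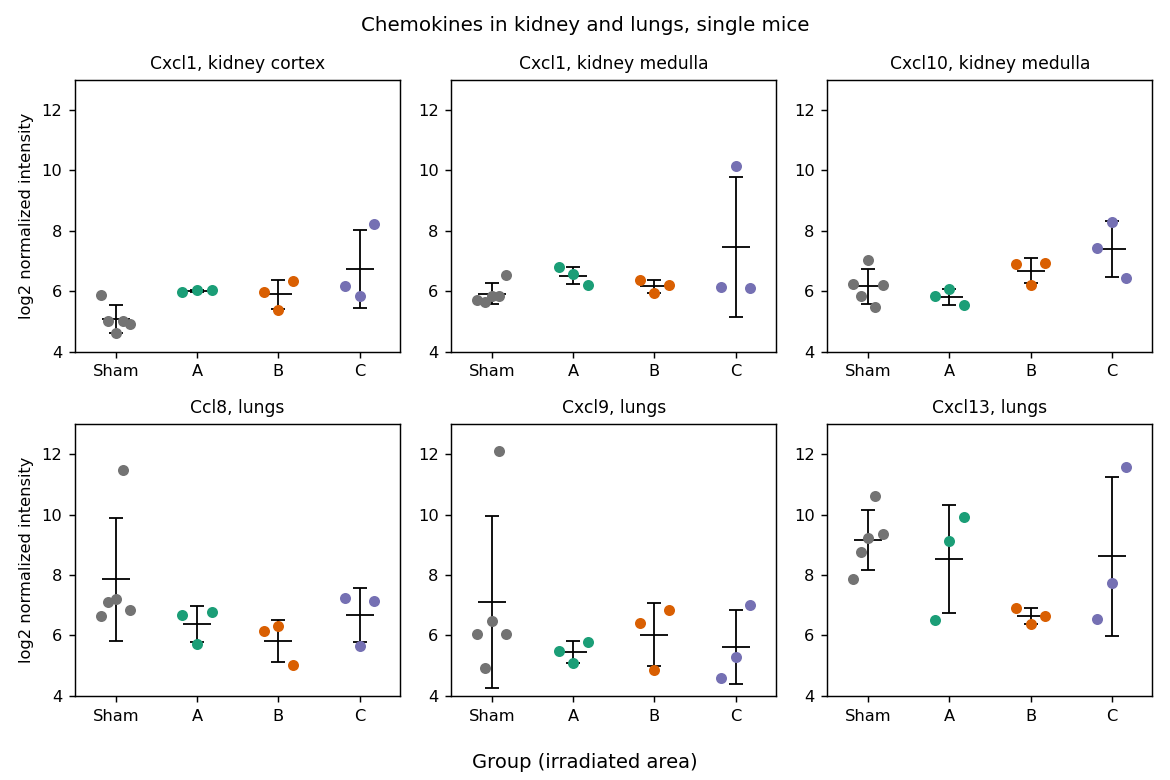
Chemokines in kidney and lungs: log2 normalized intensity (vertical axis) of single mice by group, with the mean as a long tick and SD bars. Single mice stand apart in group C for Cxcl1 (8.22 in the cortex, 10.14 in the medulla) and among the sham lungs for Ccl8 (11.48) and Cxcl9 (12.11), and the 3 lungs of group B lie between 6.39 and 6.90 for Cxcl13, below every sham lung.

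In the lungs the chemokines were read against controls that held 1 distinct mouse. Ccl8, a monocyte chemoattractant, was 6.64, 7.12, 7.21, 11.48 and 6.84 in the sham lungs. Cxcl9 was 6.03, 4.92, 6.47, 12.11 and 6.03 in the same order. In that lung, sham mouse 4, Cxcl1 was 9.46, Ccl7 was 7.86 and Cxcl13 was 10.61, each the highest sham value, and Cxcl10, which did not pass in the lungs, was detected there at 8.69. Its summed macrophage markers were 12.36 and its interferon response genes 14.78, where the other sham lungs had 11.18 to 11.80 and 13.88 to 14.10.

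Ccl8 in group B was 6.14, 6.30 and 5.03, below every sham lung, with a difference of -2.04 ± 0.88 (limma, adjusted p = 0.9). Without the lung of sham mouse 4 it was -1.13. Cxcl13 in group B was 6.90, 6.39 and 6.65, and sham lungs had 7.86, 8.77, 9.22, 10.61 and 9.34. The difference was -2.51 ± 0.97 (limma, adjusted p = 0.9) and -2.15 without the lung of sham mouse 4. Separation downward from the controls in group B was seen for 1.14% of all lung probes. Group C gave 6.54, 7.75 and 11.57 for Cxcl13, so its mice lay both below and above all controls. Its receptor Cxcr5 differed by -0.54 between the in-field groups and controls in the lungs (adjusted p = 0.836). Ccl5 ran from 10.85 to 11.60 in controls and from 9.33 to 11.82 in group C. Ccl7 passed in the lungs only, on 5 arrays, with 7.36 in 1 lung of group C and at most 5.86 in the other 8 irradiated lungs.

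In the liver the in-field differences of the chemokines were small, between -0.44 for Cxcl9 and 0.23 for Ccl24. Cxcl12 on probe ILMN_2737302 was lower in group C, at 8.74, 8.25 and 8.25, than in group A, at 9.42, 9.60 and 9.38. The difference of groups A and C was 1.05 ± 0.21 (limma, adjusted p = 0.0945), and 7.45% of all liver probes were separated in that direction. Against controls, group C differed by -0.60 ± 0.19 on this probe (adjusted p = 0.201). On ILMN_3158250 the means of groups A and C were 8.83 and 7.94, beside 8.38 in controls. On ILMN_2658908, the brightest probe, they were 13.23 and 13.05, beside 13.18, and the mice of groups A and C overlapped. Cxcl9 was 7.55, 6.52 and 6.44 in group C and 6.88 to 8.91 in controls, a difference of -1.03 ± 0.46 (adjusted p = 0.309). The liver of group C with Cxcl9 at 6.52 had the lowest sum of 10 macrophage markers, 11.20. The other 13 livers had 12.31 to 12.75, with 12.31 in the liver of group C with Cxcl9 at 6.44.

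The thyroid samples differed in their tissue markers. The summed level of 2 thyroid follicle markers was 12.34 and 14.42 in 2 controls, 14.53 in 1 mouse of group A and 14.16 in 1 of group C, and at most 8.46 in the other 10 samples. Skeletal muscle markers summed to 15.90 to 16.64 in 13 samples and to 6.95 in 1 sample of group A, which had the highest salivary gland sum, 15.17. Ccl5 was 6.58, 7.25 and 4.75 in group A and 5.60 or lower in controls, a difference of 1.15 ± 0.45 (limma, adjusted p = 0.495), and both high samples had salivary gland sums over 14. No chemokine was called in the thyroid samples.

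Sham levels of the chemokines were compared between tissues. Of 165 differences 81 were called (49.1%), close to the 45.6% of the tests of all probes. Levels below are means ± SD of 5 sham mice on the log2 scale after normalization over all arrays, and tissues of 1 mouse were again taken as independent. Cxcl13 was highest in the spleen at 12.53 ± 0.49, then in the lungs at 8.66 ± 1.11, and it was 6.59 or lower elsewhere. Both steps were called (limma, adjusted p = 7.12e-08 for spleen against lungs). Ccl5 was 11.96 ± 0.70 in the spleen and 11.02 ± 0.33 in the lungs, which did not pass the test (adjusted p = 0.0618), and 7.20 or lower elsewhere. Ccl24 was 7.70 ± 0.19 in the spleen and 7.25 ± 0.32 in the liver (adjusted p = 0.105), then 6.14 ± 0.65 in the thyroid samples, and it was not detected in the sham kidneys.

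Cxcl1 had another order. It was highest in the liver at 9.96 ± 0.26, called above every other tissue, then 6.93 ± 1.21 in the lungs, or 6.42 without sham mouse 4. Cxcl9 was 9.38 ± 0.60 in the spleen and 8.32 ± 0.78 in the liver (adjusted p = 0.137), and its lung mean of 6.74 ± 2.97 was 5.42 without the lung of sham mouse 4. Cxcl10 was highest in the spleen at 6.58 ± 0.40 and was called above the liver and the thyroid samples, where it was detected on no array. Cxcl12 on probe ILMN_2658908 was detected in every sham sample and ran from 10.73 ± 0.51 in the thyroid samples to 13.42 ± 0.28 in the lungs. On this probe the lungs, spleen and liver did not pass the test against each other (limma, adjusted p from 0.0584 to 0.989). The order of tissues depended on the probe. On ILMN_3158250 the lungs were also highest, at 9.90 ± 0.23. On ILMN_2737302 the lungs had 6.70 ± 0.54, below the spleen at 9.81 ± 0.53 and the liver at 9.35 ± 0.25. Ccl8 was 7.31 ± 2.25 in the lungs and Ccl7 5.55 ± 1.01, and both were at 6.12 or lower elsewhere. Without sham mouse 4 the lung means were 6.30 for Ccl8 and 5.12 for Ccl7, and Ccl8 in the thyroid samples was 6.12.

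**Figure D5:**
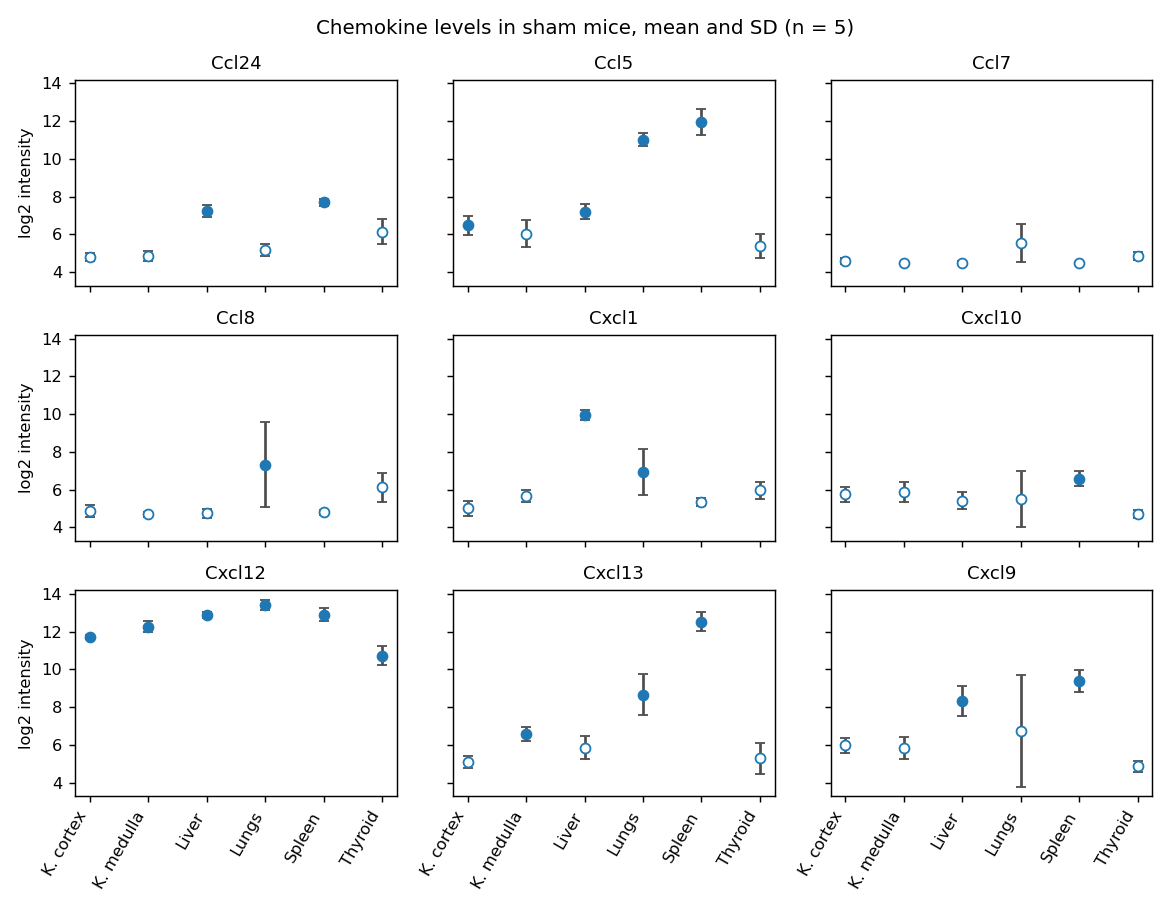
Chemokine levels in the sham mice: mean log2 intensity after normalization over all arrays, with SD (n = 5), for the brightest probe of each gene in 6 tissues (K., kidney). Filled points mark probes detected in all 5 mice. Ccl5 and Cxcl13 are highest in the spleen, Cxcl1 in the liver.

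Just inside the detection rule stood Cxcl9 in the thyroid samples with 3 arrays and Ccl24 in the lungs with 4. Just outside were Cxcl10 in the lungs with 2 arrays and Ccl2 in the medulla, Ccl7 in the thyroid samples, Cxcl13 in the cortex and Ccl8 in the cortex and spleen with 1 each. Of the 5 Cxcl12 probes, ILMN_2746295 and ILMN_3078973 were detected on no array.

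Genes whose levels followed a member most closely were ranked by Pearson's r over 70 samples of 5 tissues, each tissue centred on its mean. These samples share mice and arrays, so r is a description. For Cxcl1 the nearest probes were those of Tlr2 (r = 0.78), Nfkbiz (r = 0.76) and Lrg1 (r = 0.70). For Cxcl10 they were Gbp2b (r = 0.74), Cd274 (r = 0.68) and the chemokine Ccl19 (r = 0.68). For Cxcl9 the nearest gene was Aif1 (r = 0.71) and for Ccl8, which passed in only 1 of these tissues, Clca1 (r = 0.855). In the lungs, that 1 tissue, Ccl8 was 11.48 in sham mouse 4 and at most 7.24 in the others, so 1 sample weighs heavily in this r. For Ccl24 the nearest was Wsb2 (r = 0.51). Ccl24 and Cxcl10 each passed in 3 of the 5 tissues.

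The wider chemokine system was not called either. With a probe on the array were 30 other chemokine ligands, 17 chemokine receptors and 5 atypical receptors. None was called in 609, 175 and 133 tests over 42 comparisons (limma), and 43, 34 and 17 tests had an unadjusted p under 0.05. These are 7.06%, 19.4% and 12.8% of the tests, beside 9.59% for all probes. In the in-field spleens Ccl12, a monocyte chemoattractant, differed by 0.64 (adjusted p = 0.55) and the scavenging receptor Ackr2 by -0.78 (adjusted p = 0.274). In the in-field lungs 4 of 8 receptors were lower at an unadjusted p under 0.05, among them Ccr6 by -0.84 and Cxcr4 by -0.51, and 2 of 7 T and NK cell markers were lower as well, beside 2.77% of all lung probes. The part of these cells in the receptor levels was not tested. Targets of p53, which radiation induces, were called in some of the same fits. Cdkn1a, an inhibitor of the cell cycle, was 3.61 ± 0.14 higher in the in-field spleens (limma, adjusted p = 9.56e-10) and 2.63 ± 0.31 higher in the in-field livers (adjusted p = 0.0021). Phlda3 was called in the in-field spleens too, 2.03 higher (adjusted p = 0.000239), and Ccng1 in the in-field medullae, 0.66 higher (adjusted p = 0.00325). None was called in the in-field kidney cortex, lungs or thyroid samples. There 5 of 7, 3 of 7 and 0 of 6 were higher at an unadjusted p under 0.05, beside 4.2%, 4.01% and 0.777% of all probes. Cdkn1a was 2.38 higher in the in-field cortex (limma, adjusted p = 0.0328) and 1.47 higher in the in-field lungs (adjusted p = 0.0107), just short of a call.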

How the data were processed

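Total RNA from 6 tissues of 14 mice was hybridized to 88 arrays. The 2 samples with 3 arrays each were averaged and count once. The authors deposited non-normalized bead intensities, with a detection p-value for each probe, and their own quantile-normalized intensities, which were used as an alternative. No column of another sample was present (0 unused). In R 4.3.3 with limma 3.58.1, intensities were background-corrected with the normal-exponential model on detection p-values (offset 16), quantile-normalized within a tissue and log2-transformed. A linear model with empirical Bayes moderation was fitted per tissue over all 14 mice and all probes that passed detection, with Benjamini-Hochberg adjustment over those probes. Comparisons of tissues came from 1 fit after normalization over all arrays. That fit treated tissues as independent, since the labels do not say whether equal replicate numbers mark 1 mouse. The scripts were tested on simulated data.

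Of the probes, 23978 carry a gene symbol and 1719 carry none, and the share detected per array was 33.17% to 50.28%. The number of arrays limits the precision, and p-values measure the spread between mice of 1 experiment. The members, gene lists and tests were chosen with earlier results of these data known. Values per mouse are given for member probes that were called, had an adjusted p under 0.05, or had a group wholly on one side of the controls with a log2 difference of at least 0.58 and an unadjusted p under 0.05. Other members with values per mouse (kidney Cxcl1, Cxcl10, Cxcl9, Ccl5 and Cxcl13, the liver, the thyroid samples and further spleen and lung genes) were named after their values were seen. From the other lists, genes called or among the 3 smallest p were named, and Ccr3, Cxcr5 and Cxcr4 as receptors of members. The alternatives tried were uncorrected intensities, the normalized values of the authors, another range of quantile normalization, other detection filters, only the groups compared, the replicate number as a block, the first array of repeated samples, another variance model, another threshold and each mouse left out.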

Additional observations from a re-analysis of the deposited data

Results flagged for a closer look

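Single sham mice stood far from the other 4 in 5 of 51 sham groups of a chemokine probe (Dixon's test, critical value 0.71), and chance alone marks about 1 in 20 groups. In the lungs, sham mouse 4 had Cxcl9 at 12.11 on the log2 scale, where the others had 4.92 to 6.47, and Ccl8 at 11.48, where the others had 6.64 to 7.21. In the kidney cortex, sham mouse 3 had Ccl5 at 7.71, and the others had 6.35 to 6.70. In the kidney medulla, sham mouse 5 had Cxcl1 at 6.52, and the others had 5.65 to 5.85. In the spleen, sham mouse 5 had Ccl5 at 10.72, below the others at 11.88 to 12.16.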

How the results depend on the processing

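Under 10 alternatives the count of chemokine calls against controls was 1, and with the in-field groups together it was 1. With single mice left out the first was 1 to 2 and the second 1 to 1. The count was 2 without the kidney medulla of group C replicate 3, where Cxcl10 of group C was called. Between irradiated groups the count of 1 became 0 with only the groups compared and 0 with the replicate block, and was 0 to 1 with single mice left out. Between tissues the count of 0 in-field differences became 2 with the authors' normalized values and 3 without background correction, all of Ccl24 lower outside the spleen. All of these but 1, for the lungs, set the spleen against the kidney cortex or medulla, where Ccl24 was detected on no array. The count was 0 to 0 with single mice left out. The cause was not tested. The 81 calls between sham tissues became 69 to 99, and 79 to 84 with single mice left out. Of 1176 values of 49 named log2 differences under these settings, 1165 kept their direction and side of the threshold, 10 no longer passed (all Ccl24 of group A against group C), 1 newly passed and 0 reversed.

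Samples of different groups in a tissue are different mice, and it was checked whether those with equal replicate numbers were alike. Of 18 same-numbered pairs per tissue, 1 to 6 had deviations correlated over 0.1. The mean r of a tissue was -0.07 to 0.06 for these pairs and -0.02 to 0.02 for pairs with different numbers. This check cannot tell whether equal numbers in different tissues mark 1 mouse. With the replicate block, Ccl24 in the spleen was 1.51 higher in group C (limma, adjusted p = 0.00624), and group A against group C had an adjusted p of 0.0334.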
